A study of Drosophila melanogaster with 2 samples.

Results

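The genes described here handle iron, copper and zinc in Drosophila melanogaster. They are 10 genes chosen by name: the metallothionein genes MtnA, MtnB, MtnC and MtnD, the ferritin genes Fer1HCH and Fer2LCH, the transferrin gene Tsf1, and the metal importer genes Mvl, Ctr1A and Ctr1B. All rows of the deposited array table whose symbol is one of these names were taken, which gave 12 probe sets among the 18952 of the array, each annotated with 1 symbol. They stand for 10 of 12405 named genes. RNA came from whole mid-third instar larvae of the feeding stage, labelled as female and grown for 6 days at 25 °C. One group was Ck1alphaRNAi (Dcg-Gal4 X UAS-Ck1alphaRNAi), in which a hairpin against the casein kinase gene Ck1alpha was expressed with a driver that is active in fat body and blood cells. The other was control (Dcg-Gal4 X w1118), which carried the same driver and for which the labels name no hairpin. The paper describes Ck1alphaRNAi larvae as hyperglycemic and averse to food. The part of food intake in any value here was not tested. Each group was measured on 1 Affymetrix Drosophila 2 array made from 20 pooled larvae, so there was no replicate check and no p-value was computed. The paper's methods give Ck1alphaRNAi cultures a head start of 1 day over controls, in a passage on accounting for delays in development. They do not say whether this held for the array pools. The labels give 6 days of culture for both groups, so whether the pools differed in age or in day of harvest is not known. The paper describes most hyperglycemic flies of its study as slightly delayed in development. Stage and genotype therefore cannot be told apart in any ratio here.

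Iron, copper and zinc are needed as cofactors of enzymes, and all of them are harmful when they are free and in excess. Metallothioneins are small proteins rich in cysteine that bind copper, zinc and cadmium, and their genes are switched on by metals through the transcription factor MTF-1. Insect ferritin is made of heavy and light chains, stores iron in the midgut and passes through the secretory pathway into the hemolymph, where transferrin also binds iron. Importers of the Ctr1 family carry copper into cells, and the Nramp family member Mvl carries iron, manganese and other divalent metals.

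Some facts of the whole series bear on every value below. The MAS5 signal is the intensity of a probe set on a linear scale. Both arrays had a mean signal of 500 after 2% of the values at each end had been trimmed, so they had been scaled to each other before deposition. Detection was set at 100 on either array, a level which 8878 named genes reached. Signals below the brightest of 17 tag controls, whose sequences are not from the fly, were treated as background; this level was 53.3 for Ck1alphaRNAi and 33.1 for control. The silenced gene Ck1alpha gave 2055 in Ck1alphaRNAi and 2665 in control larvae, a ratio of 0.771, in RNA of whole larvae. Where a gene had several detected probe sets (430 genes), their log2 ratios scattered with an SD of 0.41, or 1.33-fold. This spread pools all signal levels and can include differences between transcripts of a gene. It does not cover variation among pools of larvae. The ratio of Ck1alpha lay within this spread. Testis transcripts were found on both arrays although the labels say female. Of 7 testis markers measured, 5 were detected, all with the lower signal in Ck1alphaRNAi larvae (ratios of 0.600 to 0.874). The sex makeup of the pools was not tested as a part of any result.

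Signals of the detected metal handling genes lay within 2-fold of control in Ck1alphaRNAi larvae. Of the 10 genes, 9 were detected, and none of these differed by 2-fold in either direction. Over all detected named genes, 2.83% were 2-fold or more higher in Ck1alphaRNAi larvae and 6.86% were 2-fold or more lower, so with 9 genes a count of 0 lies near this background. The median log2 ratio of the 9 genes was 0.19, beside -0.02 over all detected named genes. The signal was higher in Ck1alphaRNAi larvae for 7 of the 9 and lower for 2, beside 47.7% higher and 52.3% lower among all detected named genes. A smaller threshold of 1.5-fold, chosen after these values had been seen, was passed by Tsf1 only, upward, against 7.13% of detected named genes upward and 14.3% downward. For 6 of the 9 genes the ratio lay within the spread between probe sets, as it did for 67.9% of all detected named genes.

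**Figure D1:**
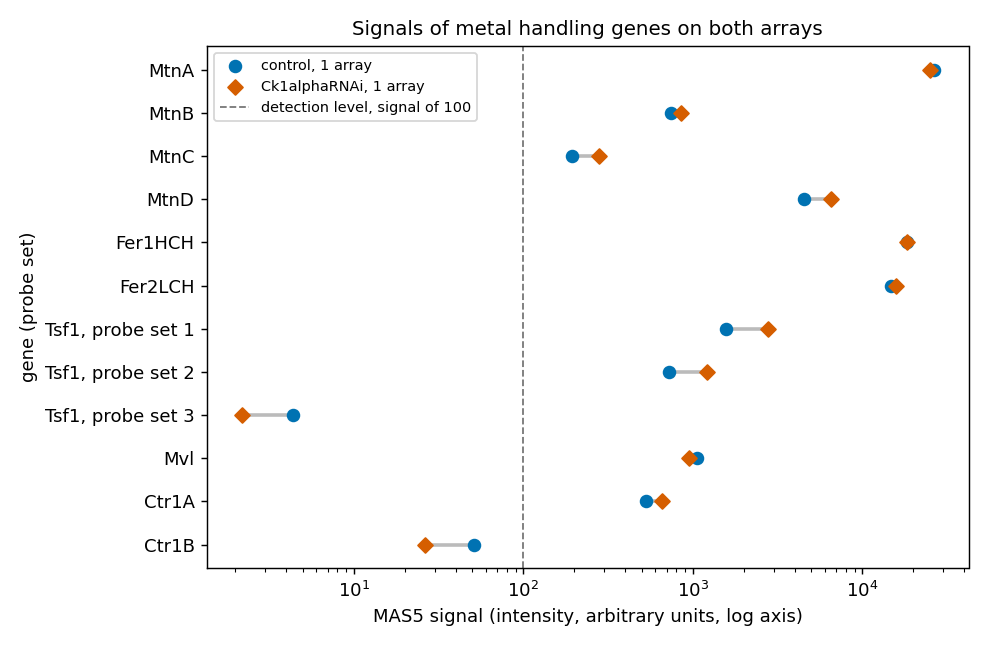
MAS5 signal of each of the 12 probe sets (rows) on a log axis, for control (circles) and Ck1alphaRNAi (diamonds), 1 array of 20 pooled larvae each; the dashed line is the detection level of 100. The signals of the 9 detected genes differ by less than 2-fold between the arrays, with the widest gap at Tsf1, while Ctr1B and probe set 3 of Tsf1 lie under the detection level on both arrays.

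MtnA, the main copper-binding metallothionein of the fly, had signals of 25150 with the hairpin and 26408 in controls, a ratio of 0.952. This is a difference far smaller than the spread between probe sets. Both signals lie toward the top of the scale, whose highest values were 35229 and 31540, and flags for saturated spots were not used here.

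The other metallothionein genes had the higher signal in Ck1alphaRNAi larvae. MtnB, a metallothionein linked to cadmium binding, gave 852 against 745 in controls (ratio 1.14). MtnC, another member of the family, gave 280 against 194, a ratio of 1.44 and a log2 ratio of 0.53. MtnD gave 6515 against 4554, a ratio of 1.43 and a log2 ratio of 0.52. The ratios of MtnC and MtnD were a little beyond the 1.33-fold spread between probe sets and short of 1.5-fold, while that of MtnB lay within it. Over the 4 genes of the family the median log2 ratio was 0.36.

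MtnB, MtnC and MtnD lie near each other in the genome, with 5 protein-coding genes between MtnB and MtnC and 3 between MtnB and MtnD in the reference annotation. MtnE, a further metallothionein gene next to MtnD there, had no probe set named for it, so no value is given. Metallothionein genes resemble each other, and probe sequences were not used here, so the extent to which these probe sets share signal was not tested. MTF-1, through which metals induce the family, gave 1608 in Ck1alphaRNAi and 1615 in control larvae, a ratio of 0.996.

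The ferritin genes had nearly equal signals on both arrays. Fer1HCH, the heavy chain that oxidises iron for storage, gave 18344 in Ck1alphaRNAi and 18254 in control larvae (log2 ratio 0.01). Fer2LCH, the light chain that takes part in forming the iron core, gave 15685 and 14663 (ratio 1.07, log2 ratio 0.10). Both chains are subunits of the same particle, and their genes are direct neighbours in the reference annotation. Each is measured by a probe set of the kind marked as shared by several transcripts, though the deposited table names 1 gene for each. A further ferritin gene, Fer3HCH, which encodes a heavy chain of mitochondria, stayed below detection at 52.5 and 74.0.

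Tsf1 had the largest ratio of the 9 detected genes. Its product is the iron-binding transferrin of the hemolymph, secreted by the fat body, which carries iron between tissues and is known to be induced on infection. The brightest of its 3 probe sets gave 2767 in Ck1alphaRNAi and 1561 in control larvae, for a ratio of 1.77 and a log2 ratio of 0.83. A second probe set gave 1217 against 725, a ratio of 1.68. These 2 probe sets differed by only 0.08 on the log2 scale, less than the SD of 0.41. The remaining probe set gave 2.18 against 4.40, under the brightest tag control on both arrays, and no fold is given for it.

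Both detected Tsf1 probe sets had the higher signal in Ck1alphaRNAi larvae, while storage protein genes of the fat body, the tissue that secretes transferrin, had the lower one. All 6 of these genes were at least 2-fold lower in Ck1alphaRNAi larvae, with log2 ratios from -8.05 to -3.50. No other fat body genes were listed as markers, so these 6 do not describe the transcripts of that tissue as a whole. A lower signal was not particular to these storage protein genes. All 7 glue genes of the salivary gland were at least 2-fold lower as well, with a median log2 ratio of -2.69. Markers of blood cells, in which the driver is also active, had a median of 0.29 on the same scale over the 8 detected of 9, and 3 of them were at least 2-fold higher. Their log2 ratios ran from -0.72 for Pxn to 2.93 for NimC1, apart from PPO3, which lay under the brightest tag control in control larvae and was at least 8.97-fold higher in Ck1alphaRNAi larvae. Fewer cells of a type, less RNA per cell and a difference in developmental stage between the groups cannot be told apart in whole larvae. The part of these cells in the signal of Tsf1, or of any other gene here, was not tested.

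Relatives of Tsf1 lay closer to equal. Tsf2, a membrane-bound transferrin of epithelial junctions, gave 735 against 750 (ratio 0.980). Tsf3 gave 235 against 174 (ratio 1.35). These genes and Fer3HCH are named for their kinship, after their values had been seen.

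The importer genes fell on both sides of 1. Mvl, which was named after a taste defect of its mutants, gave 948 in Ck1alphaRNAi and 1056 in control larvae, a ratio of 0.899. Ctr1A, the copper importer needed in most cells, gave 656 against 531, a ratio of 1.24. Both ratios lie within the spread between probe sets. Ctr1B, which serves copper uptake in the larval gut and is induced by MTF-1 when copper is scarce, gave 26.4 against 51.1. Its signal in Ck1alphaRNAi larvae was under the brightest tag control of that array, and the bound against this level comes to less than 1, so no fold is given. Ctr1B was also under the detection level of 100 on both arrays. Its relative Ctr1C gave 28.4 against 50.8, likewise below detection.

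**Figure D2:**
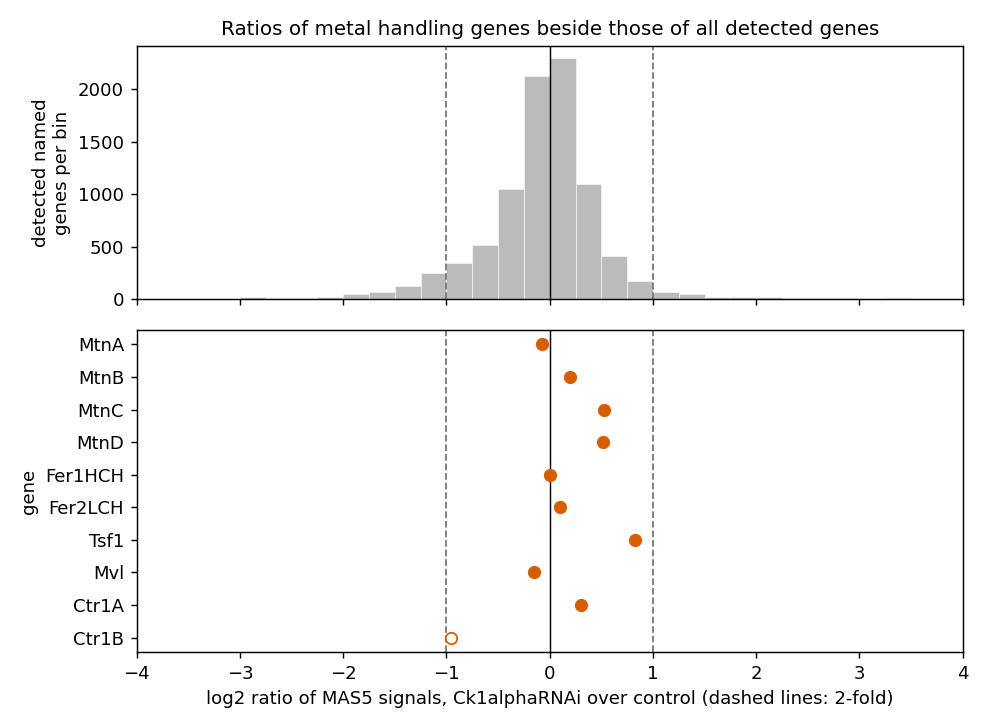
Top, number of detected named genes per bin of log2 ratio of MAS5 signals (Ck1alphaRNAi over control), for ratios between -4 and 4; bottom, the same ratio for each of the 10 genes, taken from its brightest probe set, 1 array per group (filled, detected; open, not detected). All 9 filled points lie between the dashed 2-fold lines, from -0.15 for Mvl to 0.83 for Tsf1.

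In the annotation deposited with the arrays, 5 of the 10 genes carry the term response to metal ion: the 4 metallothionein genes and Ctr1B. Cellular iron ion homeostasis is given to Fer1HCH, Fer2LCH and Tsf1, and copper ion transport to Ctr1A, Ctr1B and Mvl. Tsf1 is the single gene among them with the term defense response. Grouped by these terms, the 3 iron genes had log2 ratios of 0.01, 0.10 and 0.83, and the 4 metallothioneins of -0.07 to 0.53.

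Few other genes of iron, copper, zinc and heme handling differed between the arrays. The lists held 45 further genes, of which 44 had a probe set and 37 were detected. Of the 37, 1 was higher by 2-fold or more in Ck1alphaRNAi larvae and 1 was lower, which lies near the 2.83% and 6.86% over all detected named genes. Their median log2 ratio was 0.07. The genes named from these lists are those that reached 2-fold or, in lists with none, the detected genes whose ratios were farthest from equal, and any others were named after their values had been seen.

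Zip102B was the gene at least 2-fold higher. It belongs to the Zip family, many of whose members carry zinc into the cytosol, and its signal was 726 against 63.6 in controls. This is an 11.4-fold difference (log2 ratio 3.51) in a single probe set, with a control signal above the brightest tag control but below 100. The remaining 7 detected Zip genes stayed within 2-fold. Zip88E, at 277 against 507, had the lowest ratio (0.546). Catsup, at 2801 against 2713, and Zip99C, at 3187 against 3073, were nearly equal.

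Irp-1B was the gene at least 2-fold lower, at 1422 in Ck1alphaRNAi and 3039 in control larvae (ratio 0.468, log2 ratio -1.10). It encodes a relative of the iron regulatory proteins, which double as the enzyme aconitase. Its sister Irp-1A, the form known to bind iron responsive elements in messenger RNA, gave 392 against 385 (ratio 1.02). Apart from Tsf1, the other detected genes of this list, for iron transport and iron-sulfur cluster assembly, lay within 1.5-fold. Among them mfrn, which imports iron into mitochondria, gave 1270 against 1020, and the cluster scaffold gene IscU 3452 against 2711.

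Genes that move and deliver copper and export zinc showed small ratios throughout. Of the copper list, 6 genes other than Ctr1A were detected, with ratios from 0.976 to 1.33. Its highest was Cox11, a factor that brings copper to cytochrome oxidase, at 344 against 258, followed by Ctr1A. The copper pump gene ATP7 gave 210 against 216, and the chaperone gene Atox1, which hands copper to it, 2065 against 2043. Of 7 ZnT genes, whose products move zinc out of the cytosol, 6 were detected, with ratios from 0.800 to 1.36. The highest were ZnT49B, at 614 against 451, and ZnT41F, at 698 against 536.

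All 8 heme genes were detected and none reached 2-fold. The heme oxygenase gene Ho, whose enzyme frees iron from heme, had the lowest ratio, at 1331 against 2175 (ratio 0.612). Alas, the first enzyme of heme synthesis, gave 2451 against 3052 (ratio 0.803). The median log2 ratio of the list was -0.05.

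**Figure D3:**
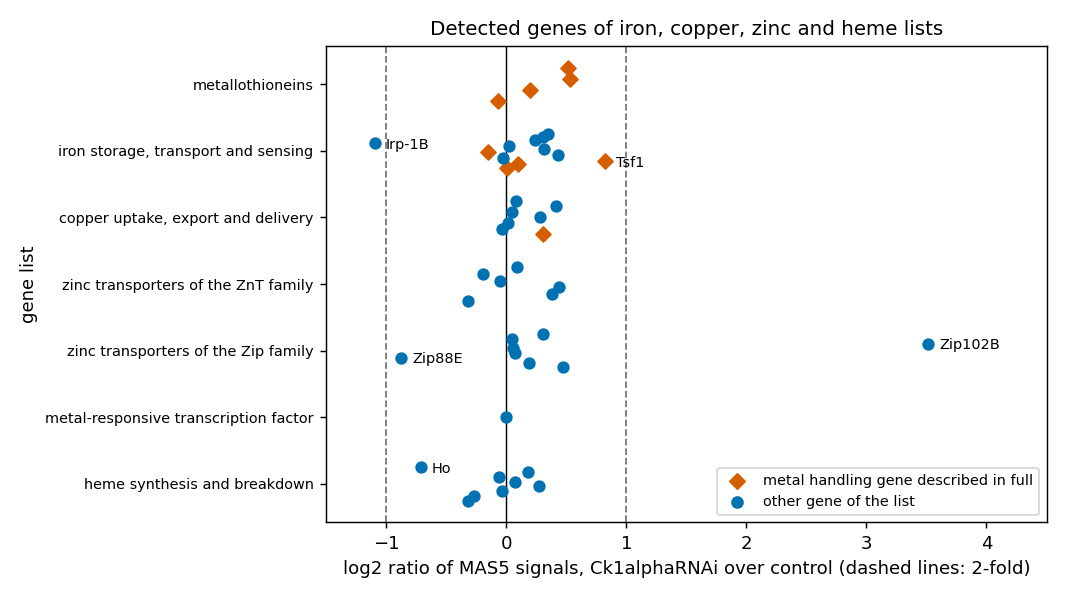
Log2 ratio of MAS5 signals, Ck1alphaRNAi over control, for each detected gene of the 7 lists (rows), with 1 array per group; diamonds are the genes described in full and circles the other genes of a list, spread vertically within a row to be seen apart. Zip102B at 3.51 and Irp-1B at -1.10 are the only points past the dashed 2-fold lines.

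How the arrays are scaled decides the direction of the smallest ratios. Centring each array on its median signal added 0.25 to every log2 ratio, that of the median of all detected named genes included. With this scaling MtnA and Mvl turned from a lower to a higher signal in Ck1alphaRNAi larvae, and Tsf1 passed 2-fold, at a ratio of 2.11. Relative to the median of all detected named genes, Tsf1 stood 0.85 higher on the log2 scale with the deposited scaling. Fer1HCH turned to a lower signal with loess scaling, at a log2 ratio of -0.08. MtnB, MtnC, MtnD, Fer2LCH, Tsf1 and Ctr1A had the higher signal in Ck1alphaRNAi larvae under all 4 scalings. Fer2LCH was nearly equal on both arrays after loess, at a log2 ratio of 0.01. Among all genes changed by at least 2-fold, 29.2% were higher as deposited, 54.5% after median centring and 41.7% after loess.

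**Figure D4:**
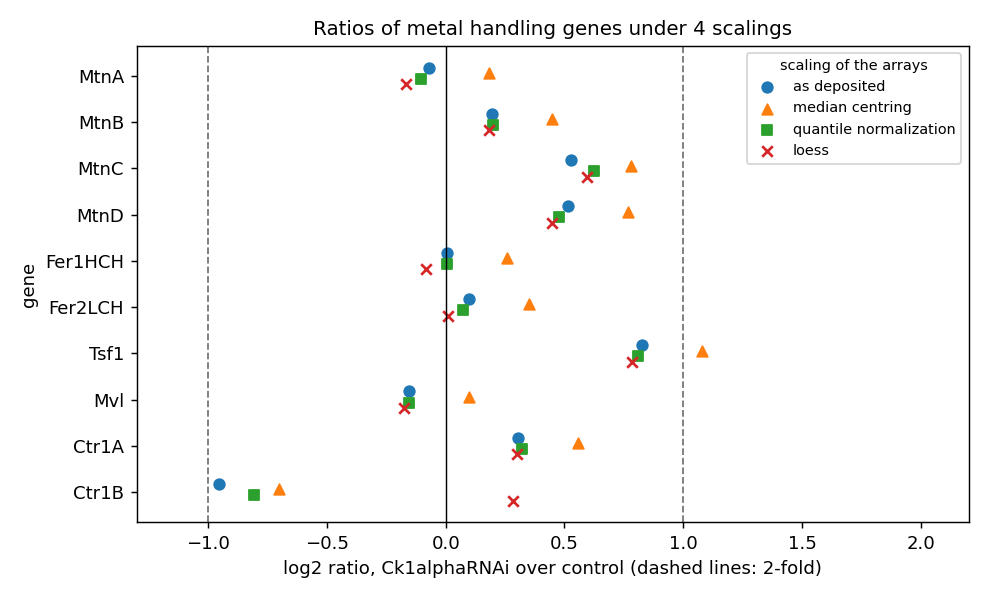
Log2 ratio of MAS5 signals, Ck1alphaRNAi over control, for the 10 genes (rows) under 4 scalings of the same 2 arrays (symbols); dashed lines mark 2-fold. Tsf1 lies between 0.78 and 1.08, and MtnA, Fer1HCH and Mvl have points on both sides of 0, as does Ctr1B, which was not detected.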

How the data were processed

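The authors deposited MAS5 signal intensity values of each probe set (MAS5, version 5, per the submitters' processing notes) in linear units. Their own fold change was not used. The sources used here do not state how the arrays were scaled or which spots were called present. Intensities in a second table were identical. The array count, 1 per group, limits the precision. Probe sets were named from the deposited symbols through the Release 6 plus ISO1 MT reference table: 14055 matched 1 gene, 15 were named through a transcript identifier, 146 kept a symbol that table lacks, and 795 with several genes were left unnamed. A gene was represented by its brightest probe set on average, and log2 ratios were taken without a pseudocount. A fold against a signal below the brightest tag control was to be given as a bound.

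The genes and lists were chosen with earlier results of these data known. The text names all 10 genes, list genes at least 2-fold changed, and otherwise up to 2 per list with the largest ratio. The marker don was left out, since the reference gives this name to another gene. Lists were described by counts and medians, with no test. The alternatives were 3 other scalings (loess span 0.4), a pseudocount of 16, other filters on low signals, the median over probe sets and the second table. Scripts were tested on simulated data. Software comprised statsmodels 0.14.6 (loess), pandas 2.3.3, matplotlib 3.10.9 and numpy 2.4.6 under Python 3.11.15.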

Additional observations from a re-analysis of the deposited data

How the results depend on the processing

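None of the detected genes among the 10 reached 2-fold under 8 of the 9 alternatives. Median centring brought the number at least 2-fold higher to 1, Tsf1. Over all detected named genes, that scaling raised the share at least 2-fold higher from 2.83% to 4.82%. The median log2 ratio of the detected genes stayed above 0, from 0.15 to 0.45. Of the further list genes, the number at least 2-fold higher fell to 0 when a signal of 100 was asked of both arrays, because Zip102B is below it in controls, and the number at least 2-fold lower fell to 0 after median centring (Irp-1B, log2 ratio -0.84). Loess moved Ctr1B to a log2 ratio of 0.28, but was fitted on detected probe sets only, to which Ctr1B does not belong. No paired analysis was possible because each group has 1 array. For the same reason no array could be left out, and the spread between larval samples is unknown.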

Other observations

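The direct neighbour of Zip102B in the reference annotation, Rnf11, which encodes a ring finger protein, also had a higher signal in Ck1alphaRNAi larvae. Its probe sets gave 865 against 110 (7.90-fold) and 150 against 98.5 (1.52-fold). On the other side Rad23 gave 2236 against 2352, and beyond it Syt7 gave 71.7 against 142. Beyond Rnf11 the brightest probe set of PMCA, a calcium pump gene, gave 2375 against 2625. The other PMCA probe sets gave 2037 against 1870 and 222 against 170. These neighbours were looked at after the ratio of Zip102B had been seen. The higher signal was thus not shared by every gene of this stretch.

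A wider set was drawn from the deposited annotation after the data had been seen, namely genes with a biological process term that names iron, copper, zinc, metal, cadmium or manganese. It held 55 genes outside the 10, of which 46 were detected, and their median log2 ratio was 0.02. Only 23 of the 55 were in none of the lists above, so the set largely repeats genes already counted. Of these 23, 21 were detected, with a median log2 ratio of -0.04. In Ck1alphaRNAi larvae 1 of the 46 was higher by 2-fold or more and 2 were lower, which lies near the 2.83% and 6.86% over all detected named genes. Zip102B and Irp-1B are among these 3 genes. The other is CG10505, which encodes a transporter of the ABC family and gave 304 in Ck1alphaRNAi and 642 in control larvae, a ratio of 0.474. After median centring its log2 ratio was -0.82, short of 2-fold.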
